A study of Homo sapiens with 48 samples.

Results

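Interferon-stimulated genes (ISGs) are the genes that cells switch on when interferon reaches their surface. The 48 ISGs described here were listed by gene symbol, from the RNA sensors at the head of the response to the antiviral effectors at its end. Of these, 47 had at least 1 probe set that carried their symbol alone, out of 19775 genes so represented on the array. The remaining one, STAT2, is given no value. Each gene was read from its brightest such probe set, and all levels are deposited log2 GC-RMA values, so that a difference of 1 stands for a 2-fold change.

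The cells were T47D-YA, a human breast cancer subline of T47D that lacks insulin receptor substrates (IRS), the adaptors that pass on signals from the IGF-I receptor. The study put back either IRS-1, in the sublines IRS-1 #10 and IRS-1 #20, or IRS-2, in the sublines IRS-2 #1 and IRS-2 #6, and kept all of them under drug selection. Each subline is called a clone here, #10 and #20 being the IRS-1 clones and #1 and #6 the IRS-2 clones. Cells went without serum for 24 h in serum-free medium (SFM) alone. They were then given SFM with fibronectin (FN), either alone or with insulin-like growth factor I (IGF-I). The groups called SFM here are therefore cells given fibronectin without IGF-I, and not cells left in SFM alone. RNA was taken after 4 h and 24 h. There were 16 groups with 3 arrays each, 48 in all. The 4 groups of each clone were therefore IGF-I for 24 h, SFM for 24 h, IGF-I for 4 h and SFM for 4 h. Parental T47D-YA cells without IRS were not analysed here, and no group received interferon.

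Standard errors (SE) come from a fit that pools the spread between arrays of one group over all 16 groups, so they hold no spread between clones. The labels do not say whether the 3 arrays of a group came from separate cultures. The labels mark those 3 arrays with the letters A, B and C. With 2 clones for each isoform, a difference between IRS-1 and IRS-2 clones cannot be told apart from a difference between clones. The methods name 2 RNA kits without saying which sample went through which, so clone and kit cannot be told apart either.

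Array medians lay between 7.39 and 7.51, and correlations within groups between 0.994 and 0.998. The mean level of 10 luminal breast markers was 12.48 to 12.66 over the SFM arrays of all clones, and 1 of the 10 differed between clones (TFF1, 1.48 between the highest and the lowest clone). The 8 immune cell markers measured out of 10 averaged 6.88 to 7.20, and their largest gap between clones was 0.311. For 10 stromal markers the averages were 7.68 to 7.88, and COL1A1 (1.07) and VIM (0.95) differed. Signal from the 3′ end of ACTB exceeded that from its 5′ end by 0.206 to 0.272 on the SFM arrays of #10, 0.17 to 0.245 in #20, 0.137 to 0.169 in #1 and 0.0488 to 0.173 in #6. This measure of RNA quality ran higher in the IRS-1 clones, as did the ISGs, with a small overlap between #20 and #6, and its part in the results was not tested.

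Type I interferons bind the receptor pair IFNAR1 and IFNAR2 and activate the kinases JAK1 and TYK2, which phosphorylate STAT2 among others. STAT2 and IRF9 are parts of the complex ISGF3, which binds the interferon-stimulated response element (ISRE) in front of its target genes. Type II interferon acts at gamma-activated sites (GAS). In breast cancer cells a set of these genes can be on without added interferon, and it is known as an interferon-related signature linked to resistance to DNA damage.

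The stretches shown are the part of the promoter that holds ISRE matches in 5 members that differed widely between the clones, followed by 2 that did not pass the test, to let the letters of both be compared. Each is 60 bases of RefSeq sequence (GRCh38.p14) on the strand of the gene, and capitals mark GAAANNGAAA read on either strand. They lie at chr1:78649729-78649788 for IFI44, chr1:78620350-78620409 for IFI44L, chr14:94110609-94110668 for IFI27, chr10:89392488-89392547 for IFIT1 and chr1:1013362-1013421 for ISG15, all on the plus strand, and at chr6:32838763-32838822 on the minus strand for TAP2 and chr15:88638922-88638981 on the plus strand for ISG20.
IFI44: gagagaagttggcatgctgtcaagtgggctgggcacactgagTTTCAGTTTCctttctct
IFI44L: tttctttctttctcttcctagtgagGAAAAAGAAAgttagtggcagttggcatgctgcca
IFI27: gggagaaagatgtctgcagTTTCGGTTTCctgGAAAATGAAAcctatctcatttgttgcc
IFIT1: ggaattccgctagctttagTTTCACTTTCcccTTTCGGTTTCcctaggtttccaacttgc
ISG15: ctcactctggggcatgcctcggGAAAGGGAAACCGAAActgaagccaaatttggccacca
TAP2: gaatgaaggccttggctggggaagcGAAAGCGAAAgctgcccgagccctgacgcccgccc
ISG20: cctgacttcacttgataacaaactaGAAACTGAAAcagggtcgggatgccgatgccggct

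In IFI27 and IFIT1 the stretch holds 2 separate matches, and in ISG15 it holds 2 that overlap and share a GAAA. The windows searched ran from 250 bases before to 50 bases after each annotated start, and 38 of the 48 members had one. A GAAANNGAAA match stood in 26 of the 38 members (68.4%), against 4.38% of 27305 genes and 3.57% of 35116 windows. Among members that differed between the clones, 23 of 34 had one, and so did 3 of the 4 with a window that did not pass the test. A GAS core, TTCNNNGAA on either strand, which reads the same on both, was found in 14 of the 38 members (36.8%), against 9.38% of all genes and 7.66% of all windows. The 2 motifs can lie side by side or overlap. A match is a description of letters and not a bound site.

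**Figure D1:**
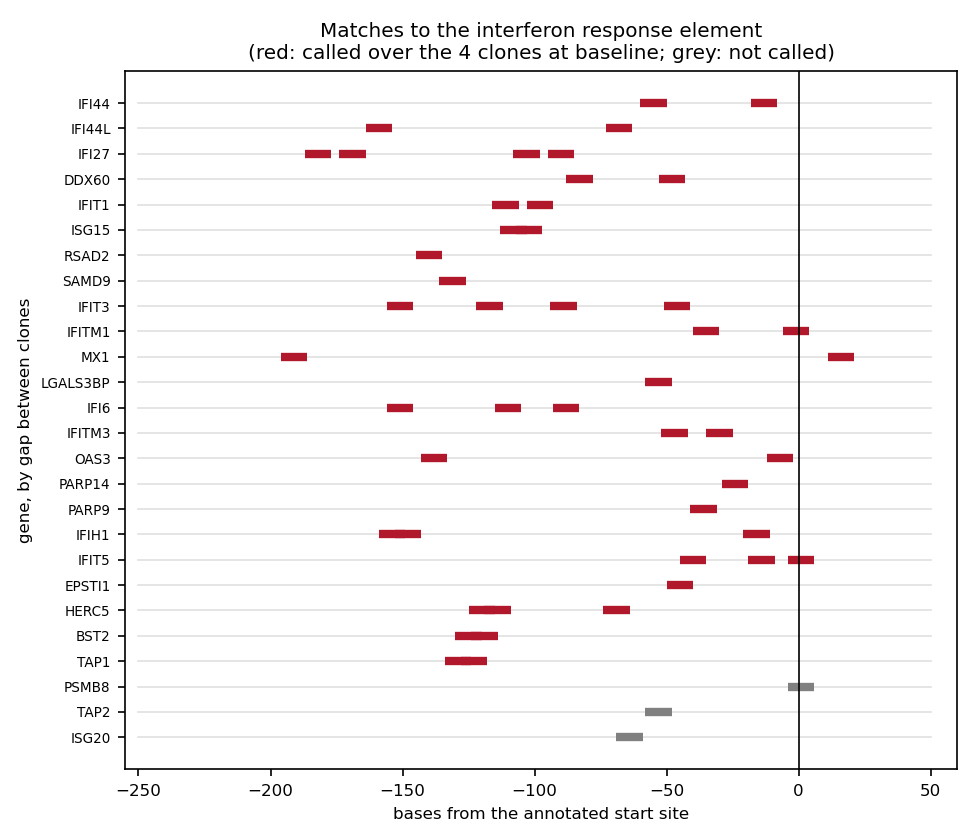
Position of each GAAANNGAAA match (bars) in bases from the annotated start site, for the 26 members with a match, in the order of their gap between clones. Windows of alternative start sites of a gene are drawn on 1 line. Red marks members called over the 4 clones and grey the 3 that were not, PSMB8, TAP2 and ISG20.

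The first comparison asked whether the clones differed in ISG level without IGF-I. It used the 6 SFM arrays of each clone, 3 taken at 4 h and 3 at 24 h, and this level is called the baseline. They did so for most of the members. A moderated F test over the 4 clones (limma, adjusted p under 0.05 and at least 1.5-fold between the highest and the lowest clone) called 41 of 47 members, while it called 14% of all genes. The median gap between clones was 1.85 over the members and 0.24 over all genes. Of the 41, 20 differed by over 4-fold and 10 by over 8-fold. The other 6 all had an adjusted p under 0.05 with gaps of 0.15 to 0.49, under the fold threshold. In bulk RNA, fewer cells that express a gene and less of its RNA per cell cannot be told apart.

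All 41 called members were lowest in #1. In 40 of the 41, #6 lay between #1 and both IRS-1 clones, and the exception was HERC5, an E3 ligase that attaches ISG15 to proteins. The highest clone was #10 in 28 and #20 in 13. In 32 of the 41 every SFM array of #1 was below every SFM array of the other clones. Every IRS-1 array was above every IRS-2 array in 18. The order and separation of the clones were counted for the members only, so no share of all genes can be set beside these counts.

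IFI44 and IFI44L, neighbouring genes for cytoplasmic proteins induced by interferon, showed the widest gaps. IFI44 had 12.19, 12.36 and 12.44 as the lowest, median and highest SFM array in #10, 11.68, 11.96 and 12.19 in #20, 6.04, 6.40 and 6.81 in #1 and 8.84, 9.70 and 10.21 in #6. The gap of 5.90 was 59.7-fold (adjusted p = 2.4e-52, limma), and only the 2 IRS-1 clones overlapped. IFI44L gave 11.78, 11.95 and 12.07 in #10, 10.37, 11.03 and 11.78 in #20, 5.65, 6.07 and 6.74 in #1 and 6.79, 7.89 and 8.77 in #6, a gap of 57.3-fold. Here #6 stood nearer to #1, at 32.5% of the way up to the IRS-1 mean, against 56.0% for IFI44.

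**Figure D2:**
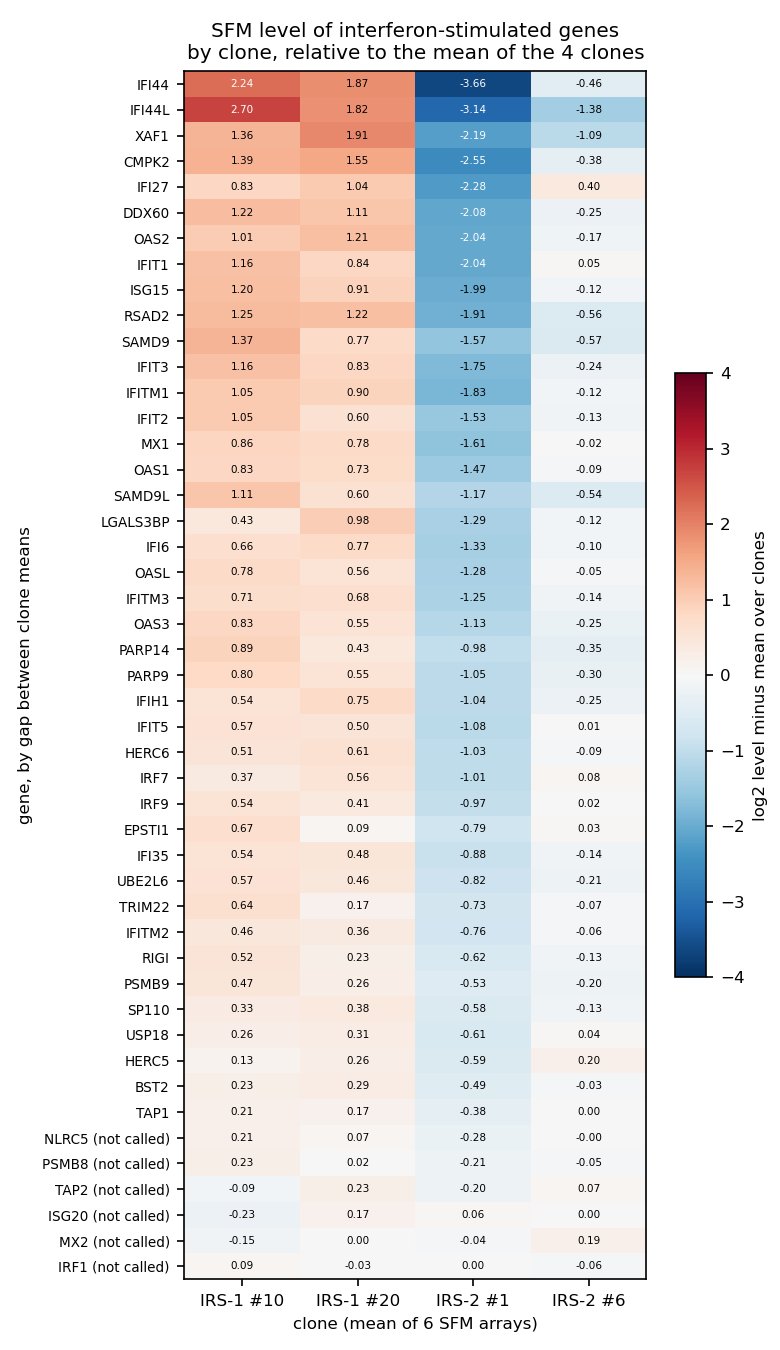
Mean SFM level (log2, 6 arrays) of the 47 members in each clone, relative to the mean of the 4 clones, ordered by the gap between clones. IFI44 stands at 2.24, 1.87, -3.66 and -0.46 in #10, #20, #1 and #6, and the 6 members at the bottom were not called.

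All 3 sensors of viral RNA differed. DDX60, a helicase that aids RIG-I-like receptors, had 10.73, 10.86 and 11.07 in #10, 10.49, 10.84 and 10.97 in #20, 7.10, 7.62 and 7.95 in #1 and 8.66, 9.45 and 9.97 in #6 (9.88-fold). IRS-1 arrays overlapped with each other only. IFIH1, which encodes MDA5, and RIGI, which encodes RIG-I, had gaps of 1.80 and 1.14.

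Among the transcription factors, IRF7 and IRF9 were called and IRF1 and NLRC5 were not. IRF7, which drives interferon genes, had 10.03, 10.23 and 10.49 in #10, 10.15, 10.40 and 10.85 in #20, 8.62, 8.84 and 9.12 in #1 and 9.32, 9.98 and 10.54 in #6. All arrays of #1 were below the others, while #6 overlapped with both IRS-1 clones. The gap was 1.57 for IRF7 and 1.51 for IRF9, the DNA-binding part of ISGF3. IRF1, a factor of the interferon gamma response, differed by 0.15, and NLRC5, the activator of MHC class I genes, by 0.49.

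Of 13 effectors that act on viral RNA or nucleotides, 11 were called with a median gap of 2.47 over all 13. CMPK2, a mitochondrial nucleotide kinase, had 9.88, 10.15 and 10.49 in #10, 9.64, 10.33 and 10.91 in #20, 5.67, 6.22 and 6.82 in #1 and 7.40, 8.45 and 9.08 in #6 (17.1-fold). Its neighbour RSAD2 encodes viperin, an enzyme that makes a chain-terminating nucleotide, and was measured at 10.54, 10.72 and 11.01 in #10, 10.07, 10.70 and 11.33 in #20, 7.26, 7.65 and 7.85 in #1 and 8.30, 8.90 and 9.66 in #6 (8.97-fold). In both genes #1 lay below all other arrays.

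IFIT1, a cap-binding protein that blocks translation of foreign RNA, had 12.89, 13.06 and 13.22 in #10, 12.19, 12.79 and 13.21 in #20, 9.30, 9.85 and 10.49 in #1 and 11.07, 11.99 and 12.65 in #6 (9.19-fold). Clones #20 and #6 overlapped over all SFM arrays, though not at the same time point. IFIT3, its partner, had 11.84, 12.14 and 12.44 in #10, 11.14, 11.86 and 12.39 in #20, 8.74, 9.23 and 9.66 in #1 and 9.91, 10.77 and 11.47 in #6. For IFIT2 the values were 10.29, 10.64 and 10.89 in #10, 9.69, 10.21 and 10.55 in #20, 7.66, 8.09 and 8.34 in #1 and 8.67, 9.52 and 10.12 in #6. Both genes were lowest in #1. The gaps were 2.91 for IFIT3, 2.58 for IFIT2 and 1.65 for IFIT5, which binds RNA as well.

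OAS2, which makes the 2-5A that activates RNase L, stood at 12.29, 12.34 and 12.40 in #10, 12.10, 12.57 and 12.92 in #20, 8.79, 9.24 and 9.77 in #1 and 10.41, 11.17 and 11.86 in #6 (9.53-fold). OAS1, OASL and OAS3 followed with gaps of 2.29, 2.06 and 1.95. MX1 and MX2 are neighbours that encode dynamin-like GTPases, and they behaved differently. MX1 had 13.48, 13.54 and 13.61 in #10, 13.08, 13.48 and 13.78 in #20, 10.63, 11.13 and 11.38 in #1 and 12.09, 12.67 and 13.19 in #6, a gap of 2.47 (adjusted p = 2.4e-38, limma). MX2 had 8.66, 8.75 and 8.96 in #10, 8.74, 8.93 and 9.10 in #20, 8.86, 8.89 and 8.94 in #1 and 9.01, 9.12 and 9.27 in #6, a gap of 0.35. Every clone overlapped with another in MX2, and its highest mean was in #6. ISG20, a 3′ exonuclease, also stayed below the fold threshold (0.40).

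The ISG15 conjugation system was called in all 5 members. ISG15, the ubiquitin-like modifier itself, had 11.96, 12.08 and 12.14 in #10, 11.30, 11.79 and 12.16 in #20, 8.45, 8.97 and 9.12 in #1 and 10.01, 10.80 and 11.37 in #6 (9.11-fold). #1 was apart from the other arrays, and #6 reached the lowest array of #20. The gaps were 1.39 for its E2 enzyme UBE2L6, 1.63 for HERC6, 0.84 for HERC5 and 0.92 for USP18, the protease that removes ISG15 and restrains the receptor. HERC5 had 8.56, 8.59 and 8.71 in #10, 8.55, 8.77 and 8.80 in #20, 7.78, 7.88 and 8.04 in #1 and 8.35, 8.68 and 8.91 in #6, so that #6 overlapped with both IRS-1 clones.

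The 4 membrane proteins were called. IFITM1, which hinders entry of enveloped viruses, had 13.44, 13.54 and 13.63 in #10, 13.13, 13.42 and 13.61 in #20, 10.38, 10.70 and 10.85 in #1 and 11.89, 12.40 and 12.78 in #6 (7.35-fold). Its neighbours IFITM3 and IFITM2 had gaps of 1.96 and 1.21. These paralogs are nearly identical, and signal shared between their probes could not be separated here. BST2, which encodes tetherin, differed by 0.79.

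Antigen processing was the group with the smallest median gap (0.514). TAP1, a chain of the peptide transporter, and PSMB9, a subunit of the immunoproteasome, were called at 0.59 and 1.00, while TAP2 (0.43) and PSMB8 (0.44), their neighbours on the chromosome, were not.

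All 14 nuclear and other members were called, IFI44 and IFI44L among them. XAF1, which promotes apoptosis, had 10.19, 10.47 and 10.73 in #10, 10.53, 11.11 and 11.41 in #20, 6.51, 6.85 and 7.50 in #1 and 7.24, 7.97 and 8.95 in #6 (17.2-fold). Its level in #6 was 28.8% of the way from #1 to the IRS-1 mean, the lowest such share among the 20 members that differed by over 4-fold. IFI27, a mitochondrial protein widely used as an interferon marker, had 14.04, 14.20 and 14.26 in #10, 14.34, 14.37 and 14.47 in #20, 10.93, 10.99 and 11.39 in #1 and 13.63, 13.76 and 13.83 in #6 (9.97-fold). It had the highest share, 83.4%, and the median over the 20 was 59.1%. SAMD9, a growth-restraining antiviral factor, had 9.81, 10.10 and 10.20 in #10, 9.03, 9.55 and 9.80 in #20, 6.84, 7.17 and 7.47 in #1 and 7.43, 8.23 and 8.67 in #6, and its neighbour SAMD9L had a gap of 2.28. IRS-1 and IRS-2 clones of SAMD9 did not overlap, while the lowest array of #6 lay within the range of #1, as it did for XAF1. In the other 8, from LGALS3BP at 2.27 to SP110 at 0.96, the lowest clone was again #1.

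Between isoforms and between single clones, with the same thresholds, IRS-1 clones exceeded IRS-2 clones in 37 members and fell below them in none, where 5% of all genes were called and 1.77% were higher. IFI44L was higher by 4.52 ± 0.06 (SE) and IFI44 by 4.11 ± 0.04. Within IRS-2, 36 members were lower in #1 than in #6 and none was higher (all genes 1.55%, lower 0.688%), with IFI44 at -3.20 ± 0.06 and IFI27 at -2.68 ± 0.04. Within IRS-1 only IFI44L (0.88) and SAMD9 (0.60) were called, both higher in #10 than in #20 (all genes 4.11%). With SFM arrays of 4 h alone, this count was 10. Against #1, #10 was higher in 41 members (all genes 7.48%) and #20 in 40 (6.44%). Against #6, the counts were 30 for #10 (8.25%) and 28 for #20 (5.06%), and IFI27 was called in #20 (0.64) and had 0.43 in #10. With SFM arrays of 24 h alone, #10 exceeded #6 in 16. These comparisons share arrays.

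Several members had other probe sets, 32 in all. Of the 27 that belonged to called members, 24 were called over the clones as well (all genes 14%). These 27 were picked through the call of their gene on the same arrays, so the count is a description and no separate support. The sign of IRS-1 minus IRS-2 matched that of the brightest one in 26. The order of the clones was not counted over them. It held for the other probe sets of OAS1 and IFIT3. The dimmest of OAS2 was highest in #6 (8.55, against 8.35 in #20 and 8.05 in #10). In EPSTI1 the dimmer one had #6 (7.15) above #20 (6.85). For IFI44 the other probe set gave -0.49 for #1 minus #6, which was not called.

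Upstream genes listed outside the members were seldom called (all genes 14%), while the members IRF7, IRF9, IFIH1 and RIGI were. The 18 interferon genes measured out of 21 had gaps of at most 0.439. They averaged 5.98 to 6.39 on SFM arrays, dim levels at which differences are understated. The 6 receptor chains had gaps of at most 0.58 (IL10RB), with IFNAR1 at 0.36 and slightly higher in the IRS-2 clones. Of 9 further kinases and factors only BATF2 (0.59) was called, of 11 genes that induce interferon TLR3 (1.14) and DHX58 (0.77), and the 7 inhibitors stayed at or below 0.458. TLR3, a sensor of double-stranded RNA, was highest in #10.

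Among 45 other interferon targets measured out of 51, 21 were called over the clones (all genes 14%). IFI16, a DNA sensor, had the widest gap (3.10) and another order of clones, with 9.49, 9.76 and 9.96 in #10, 7.28, 7.92 and 8.39 in #20, 6.62, 6.69 and 6.95 in #1 and 6.17, 6.70 and 7.03 in #6. #10 stood above all other arrays, and the IRS-2 clones overlapped. DDX60L (2.42), PLSCR1 (1.63) and EIF2AK2 (1.11), the kinase PKR, were also called. In the comparison of isoforms, 12 of the 45 were higher in IRS-1 clones (all genes 1.77%) and 0 lower. HLA-B, HLA-C, HLA-E, HLA-F and B2M, the class I antigen-presenting chains, were not called, with gaps of 0.12 to 0.41.

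The second comparison asked how far the members moved between 4 h and 24 h in SFM. Time in culture without serum and time since fibronectin was given both grow over this interval and cannot be told apart. The members were higher at 24 h in #6 and #20, less so in #1, and hardly in #10. In #6, 30 of 47 members were called and all were higher (all genes 0.647%, higher 0.511%). In #20 the count was 17 (0.541%, higher 0.167%) and in #1 it was 5 (0.329%, higher 0.167%), again all higher. In #10 limma called 0 (0.0202%), with 19 members at an unadjusted p under 0.05 (all genes 17.9%). The methods' t-test, run on the arrays of each comparison alone, called 19 in #6 and 0 in each of the other clones after adjustment. With unadjusted p and 1.5-fold it called 30 in #6, 17 in #20, 5 in #1 and 0 in #10. The median difference over members was 0.116 in #10, 0.444 in #20, 0.259 in #1 and 0.704 in #6, where the medians of all genes were 0.01, 0.02, -0.003 and -0.02.

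IFI44L moved most. It had 8.61, 8.77 and 8.65 at 24 h and 6.79, 7.17 and 7.10 at 4 h in #6 (1.66 ± 0.12, SE), and 11.59, 11.78 and 11.70 at 24 h and 10.37, 10.43 and 10.47 at 4 h in #20 (1.27 ± 0.12). Neither pair of groups overlapped. In #10 it had 11.94, 12.07 and 12.06 at 24 h and 11.78, 11.79 and 11.95 at 4 h, and in #1 it had 6.07, 6.14 and 6.74 at 24 h and 6.07, 5.65 and 5.87 at 4 h, neither of which was called. IFI44 was called in #6 (1.12 ± 0.08), and with its 2 probe sets averaged the difference was 0.56 and no longer called. The 2 probe sets disagreed. The dimmer one had 0.01 in #6 and was called in #20 (0.59), where the brightest one had 0.44 and was not called.

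IFIT1 was called in 3 clones. Its arrays read 12.64, 12.65 and 12.55 at 24 h and 11.07, 11.43 and 11.39 at 4 h in #6 (1.32). In #20 they read 13.14, 13.18 and 13.21 at 24 h and 12.19, 12.45 and 12.30 at 4 h (0.87), and in #1 10.49, 10.28 and 10.06 at 24 h and 9.30, 9.63 and 9.41 at 4 h (0.83). All 24-h arrays exceeded the 4-h arrays of their clone. At 24 h the #20 arrays were also all above those of #6.

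The other 4 members called in the same 3 clones were OAS2, CMPK2, IFIT3 and OAS1, all from the group of effectors that act on RNA or nucleotides. OAS2 was higher at 24 h by 0.68 in #20, 0.80 in #1 and 1.30 in #6. For CMPK2 the difference was 1.08 in #20, 0.72 in #1 and 1.31 in #6. IFIT3 had 1.01 in #20, 0.63 in #1 and 1.35 in #6. All 4 had the largest difference in #6, OAS1 with 1.15 there, 0.64 in #20 and 0.62 in #1. In #1 the differences of CMPK2, IFIT3 and OAS1 were near the threshold, and without the A arrays they fell under 1.5-fold. With the probe sets of a gene averaged, OAS2 (0.57) and IFIT3 (0.41) in #1 and OAS2 in #20 (0.50) were not called.

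XAF1 in #6 had 8.50, 8.95 and 8.69 at 24 h and 7.24, 7.35 and 7.44 at 4 h (1.37 ± 0.12), and in #20 it was higher by 0.68. ISG15 had 11.30, 11.37 and 11.29 at 24 h and 10.01, 10.32 and 10.17 at 4 h in #6 (1.15 ± 0.08), and was higher by 0.69 in #20. Neither gene overlapped between times in #6. RSAD2 was higher by 1.23 in #6 and 1.04 in #20, SAMD9 by 1.04 in #6 and 0.65 in #20, and IFIT2 by 1.04 in #6 and 0.64 in #20. With its probe sets averaged, IFIT2 in #20 had 0.55 and was not called. SAMD9L was called in #20 (0.95) and not in #6 (0.31). The other calls in #20 were TRIM22, an antiviral E3 ligase, at 0.94, IFIT5 at 0.72, USP18 at 0.72, EPSTI1 at 0.64 and MX1 at 0.59.

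By role, the calls in #6 were all 3 sensors, the factors IRF7 and IRF9, 11 of 13 RNA effectors, 3 of 5 in the ISG15 system, 1 of 4 membrane proteins (IFITM1), 0 of 4 antigen-processing genes (differences of -0.0297 to 0.51) and 10 of 14 others. Those in #20 were 9 RNA effectors, 2 ISG15 genes and 6 others. Altogether 31 of the 41 members that differed between clones were also called with time in at least 1 clone (all genes 1.07%). Both calls rest on the same SFM arrays. The 10 that were not called with time were IFI27 (0.14 in #6), IFI6 (0.27), LGALS3BP (0.43), IFITM3 (0.29), IFITM2 (0.22), BST2, HERC5, HERC6, PSMB9 and TAP1. None of the 6 members below threshold at baseline was called with time.

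**Figure D3:**
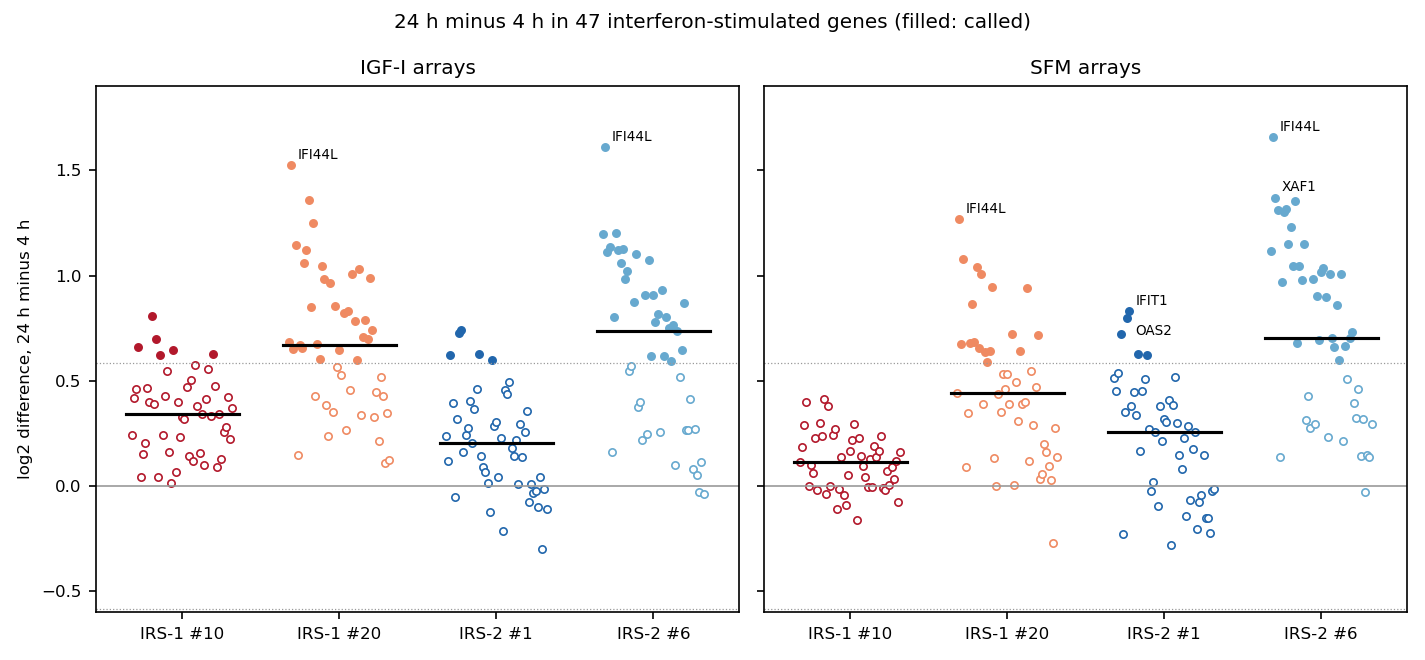
Difference between 24 h and 4 h (log2) in the 47 members (points), on IGF-I arrays at the left and SFM arrays at the right, by clone. Filled points were called, black lines are medians and dotted lines mark 1.5-fold. On SFM arrays the medians run at 0.116 in #10, 0.444 in #20, 0.259 in #1 and 0.704 in #6.

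A test of the time difference itself over the 4 clones called 27 of 47 members (all genes 2.11%). The gap between the clone with the largest and the clone with the smallest time difference was 1.47 for IFI44L (adjusted p = 1.1e-08, limma), 1.24 for OAS2, 1.17 for ISG15, 1.09 for IFIT1, 1.08 for XAF1 and 1.00 for IFI44. The smallest difference in IFI44L, 0.18, belonged to #10. For IRF7 the gap was 0.78, and its arrays in #6 were 10.42, 10.54 and 10.44 at 24 h and 9.32, 9.52 and 9.53 at 4 h, without overlap. Without the A arrays HERC5, IFIT5 and UBE2L6 were no longer called in this test, and without the C arrays IFIT2 was not. With the probe sets of a gene averaged, the gap was 0.55 for XAF1, 0.41 for IFI44, 0.43 for IFIH1, 0.50 for IFIT2, 0.49 for IFIT5, 0.34 for PARP14 and 0.58 for SAMD9L, and these 7 were not called. HERC5 was not called after quantile normalization.

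The IGF-I arrays are separate from the SFM arrays, and their difference between 24 h and 4 h combines time with longer IGF-I. They called 6 members in #10 (all genes 0.384%), 29 in #20 (1.26%), 5 in #1 (0.394%) and 28 in #6 (0.617%). The median over members was 0.341 in #10, 0.67 in #20, 0.207 in #1 and 0.735 in #6. IFI44L was higher at 24 h by 1.52 ± 0.12 in #20 and by 1.61 ± 0.12 in #6 on these arrays.

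Other pathway genes followed in part. Among the 45 other interferon targets, 9 were called over the clones for time (all genes 2.11%) and 11 in at least 1 clone (1.07%), CXCL10, a chemokine, by 0.96 in #6. IFNB1, the gene of interferon beta, was called over the clones (0.68), and no clone was called by itself. Its difference was -0.46 in #6 (adjusted p = 0.0056, limma), lower at 24 h and under the fold threshold. The interferon genes as a group were dim on these arrays, and any part of IFNB1 in the differences of the members was not tested. No other ligand, receptor, kinase, inducer or inhibitor listed was called with time.

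**Figure D4:**
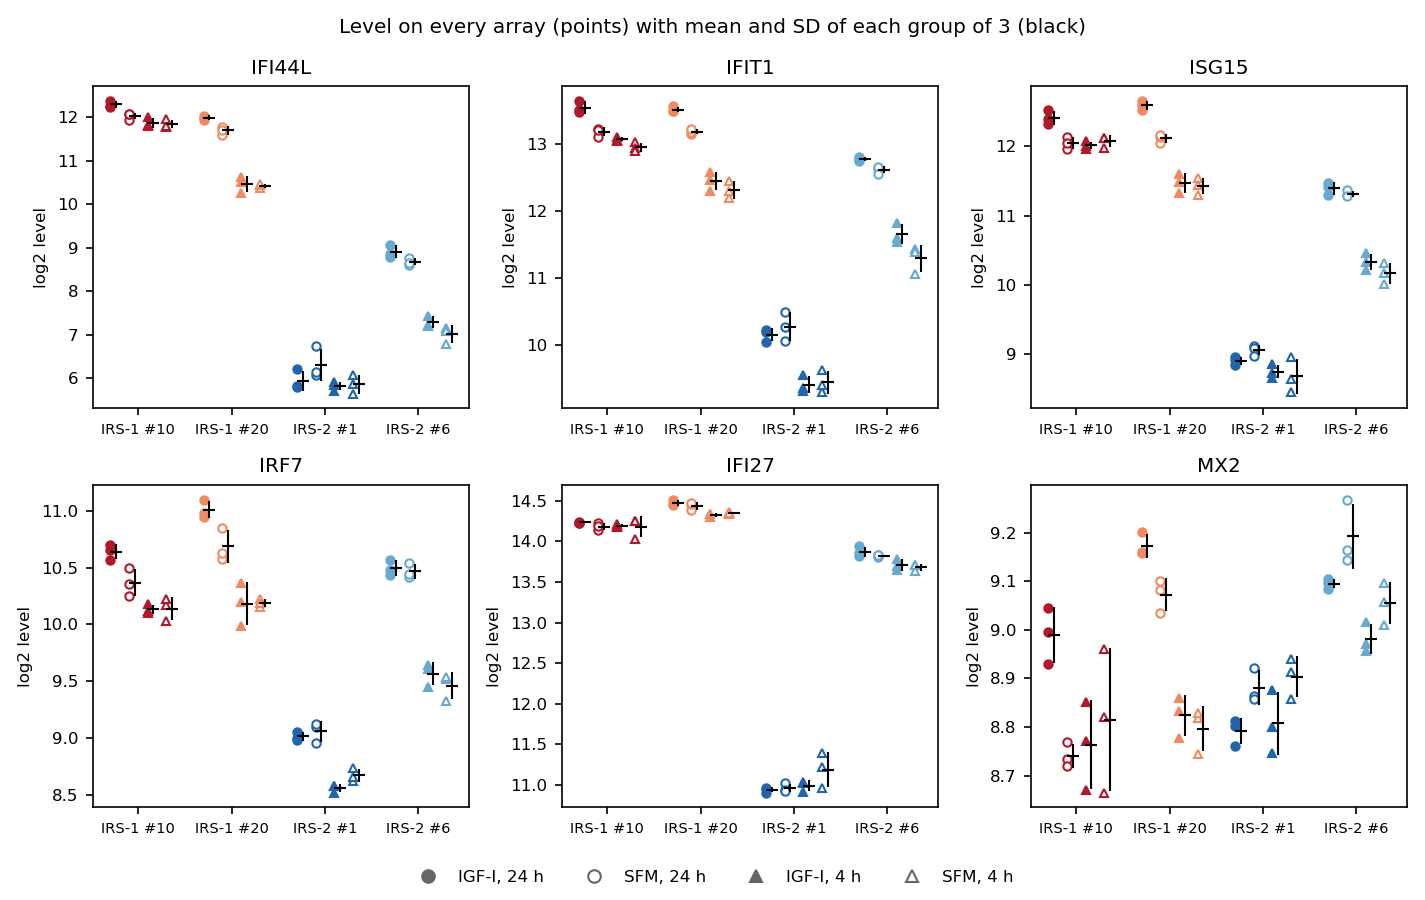
Level (log2) on each of the 48 arrays for 6 members, by clone, with filled circles for IGF-I at 24 h, open circles for SFM at 24 h, filled triangles for IGF-I at 4 h and open triangles for SFM at 4 h. Black marks give the mean and SD of 3 arrays, and each panel has its own axis. IFI44L, IFIT1, ISG15 and IRF7 are higher at 24 h in #20 and #6, IFI27 differs between clones with little difference in time, and the axis of MX2 spans less than 1 unit.

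The third comparison was the response to IGF-I, the purpose of the study. After 4 h few members passed the test. Limma called 0 members in #10 (all genes 0.086%), 0 in #20 (0.086%), 0 in #1 (0.142%) and 2 in #6 (0.303%). The methods' t-test called 0 in each with adjusted p. With unadjusted p and 1.5-fold it called 2 in #6 and 0 in each of the other clones. At an unadjusted limma p under 0.05 there were 5 in #10 (all genes 15.5%), 9 in #20 (19.6%), 16 in #1 (12.9%) and 16 in #6 (13.5%). The 2 calls were IFIT3, with 10.67, 10.55 and 10.88 in IGF-I and 9.91, 10.17 and 10.15 in SFM (0.62 ± 0.09, adjusted p = 1.2e-06, limma), and IFIT2, with 9.63, 9.35 and 9.70 in IGF-I and 8.67, 9.16 and 8.96 in SFM (0.63 ± 0.10, adjusted p = 4.7e-05). In both genes all IGF-I arrays were above all SFM arrays. Both fell under 1.5-fold without the A arrays, without the C arrays, and with the probe sets of a gene averaged. The response at 4 h was not called to differ between clones for any member (limma, 0 of 47, all genes 0.167%, with 13 members and 7.83% of all genes at an unadjusted p under 0.05).

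After 24 h most members lay slightly above SFM with IGF-I in the IRS-1 clones, and below it in #1. The median difference was 0.217 in #10, 0.215 in #20, -0.104 in #1 and 0.0445 in #6, with 46 of 47 members above 0 in #10, 47 in #20, 7 in #1 and 29 in #6. Few reached 1.5-fold. The calls were 1 in #10 (all genes 0.298%), 1 in #20 (0.314%), 0 in #1 (0.0354%) and 0 in #6 (0.0657%). The methods' t-test called 0 in each with adjusted p. With unadjusted p and 1.5-fold it called 1 in #10, 1 in #20 and 0 in each IRS-2 clone. An unadjusted limma p under 0.05 was found for 31 members in #10 (all genes 23.8%), 32 in #20 (21.5%), 15 in #1 (15.7%) and 12 in #6 (19.0%). With no fold threshold limma called 22 in #10 (all genes 11.0%), 23 in #20 (10.4%), 2 in #1 (4.55%) and 2 in #6 (5.76%).

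RSAD2 was the call in #10. It had 11.48, 11.44 and 11.73 with IGF-I and 10.73, 11.01 and 11.01 in SFM (0.63 ± 0.09, adjusted p = 2.7e-06, limma), with no overlap, and fell under 1.5-fold without the A arrays. HERC5 was the call in #20, with 9.28, 9.43 and 9.39 with IGF-I and 8.74, 8.71 and 8.80 in SFM (0.62 ± 0.07, adjusted p = 9.4e-09, limma). These did not overlap either, and the difference was under 1.5-fold without the B arrays. Both calls are of brightest probe sets. The dimmer probe set of IFIT3 was called at 24 h in #10 (0.62) and in #20 (0.69). In the brightest one of IFIT3 the differences were 0.52 and 0.54, not called. The dimmer probe set of OAS3 was called in #10 (0.59) and not in #20 (0.27). IFI44 in #1 was not called, being under the fold threshold, with 6.35, 6.44 and 6.12 with IGF-I and 6.81, 6.55 and 6.70 in SFM (-0.38 ± 0.08, adjusted p = 0.0024, limma), and all its IGF-I arrays were below its SFM arrays.

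**Figure D5:**
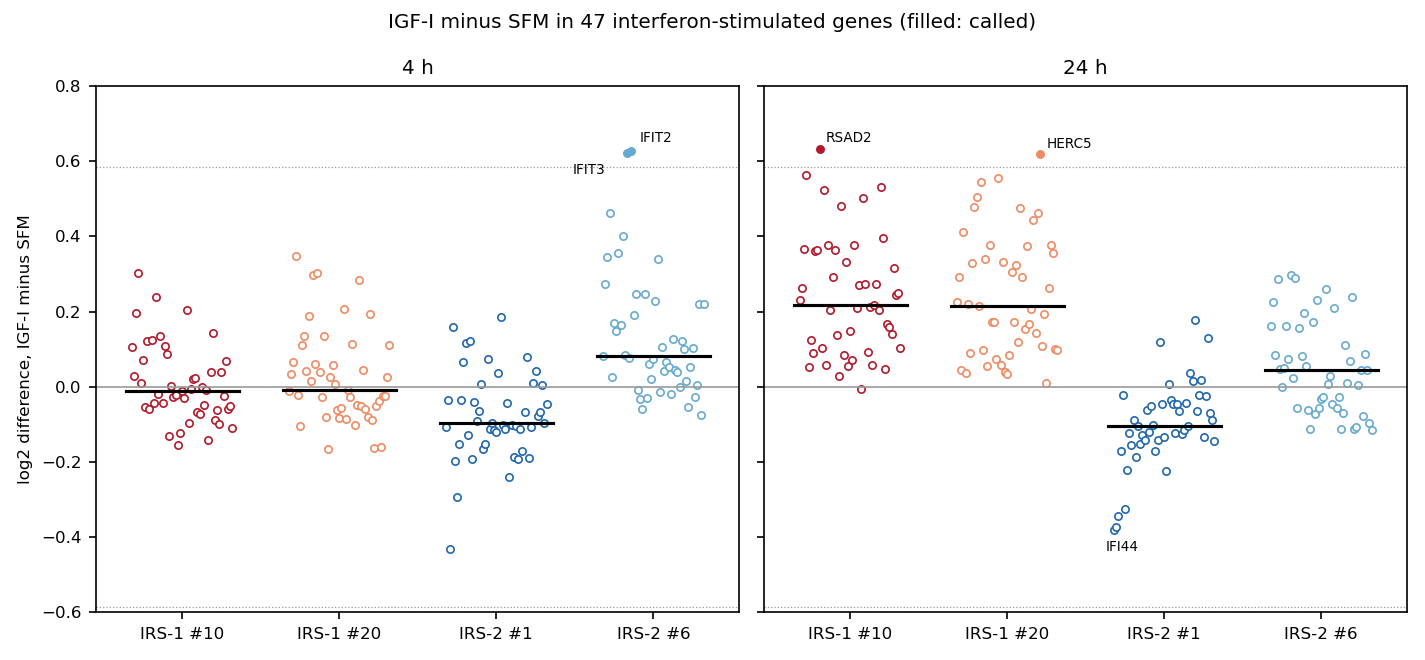
Difference between IGF-I and SFM (log2) in the 47 members (points) at 4 h and 24 h, by clone. Filled points were called, black lines are medians and dotted lines mark 1.5-fold. At 24 h the medians are 0.217 in #10, 0.215 in #20, -0.104 in #1 and 0.0445 in #6.

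The 24-h response differed between clones in 8 members (all genes 0.415%). These were HERC5 with a gap of 0.73 between the largest and the smallest response (adjusted p = 7.9e-07, limma), OASL with 0.73 (3.3e-05), CMPK2 with 0.73 (0.011), RSAD2 with 0.72 (0.0027), IFI44L with 0.66 (0.037), IFIT3 with 0.65 (0.0014), ISG15 with 0.63 (0.0017) and IFI44 with 0.61 (7.4e-04). OASL, a relative of the OAS enzymes that aids RIG-I, had responses of 0.48 in #10, 0.55 in #20, -0.17 in #1 and 0.17 in #6. ISG15 had 0.36 in #10, 0.48 in #20, -0.15 in #1 and 0.07 in #6. HERC5 had 0.40 in #10, 0.62 in #20, -0.06 in #1 and -0.11 in #6. For CMPK2 the responses were 0.56 in #10, 0.41 in #20, -0.17 in #1 and 0.29 in #6. In each of these 4 genes both IRS-1 clones lay above 0 and #1 below it. HERC5 and OASL were called in this test whichever letter of arrays was left out. CMPK2 was not called without B or without C, IFI44, IFI44L and ISG15 without A or without C, IFIT3 without B and RSAD2 without A, and the count was 4 to 6. Median centring also ended the calls of CMPK2 (adjusted p = 0.054, limma) and IFI44L (0.10), variances without trend that of IFI44L (0.092), and averaging of probe sets that of IFI44, with a gap of 0.57. The response at 24 h and the time difference in SFM share the SFM arrays of 24 h, so each is given only as its own value.

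Of the listed genes outside the members, IFI16 (0.65), CXCL10 (0.76) and TLR3 (0.84) differed between clones in the 24-h response, and IFI16 (0.65) in the 4-h response. TLR3 was higher with IGF-I at 24 h in #20 (0.68 ± 0.09). No listed ligand, receptor or inhibitor was called in any IGF-I comparison.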

How the data were processed

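Affymetrix HG-U133 Plus 2.0 arrays were run on 48 RNA samples, 3 in each of 16 groups. The authors deposited log2 values normalized by GC-RMA, which the submitters' processing notes also name, and these ran between 3.13 and 15.36. GC-RMA shrinks dim probe sets, so differences among low values are understated. Precision rests on 3 arrays a group, and no count or read depth applies. The 62 control probe sets were left out and 54613 were tested. Platform annotation gave 41091 probe sets 1 symbol, 1801 several and 11721 none, and each of 19775 genes was read from its brightest probe set with 1 symbol.

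One mean per group was fitted to all 48 arrays in limma 3.58.1 (R 4.3.3), with empirical Bayes variances that follow a trend in intensity and 32 residual degrees of freedom. Contrasts compared IGF-I with SFM, 24 h with 4 h, and clones or isoforms over SFM arrays, and moderated F tests compared the 4 clones. P-values were adjusted by Benjamini-Hochberg over 54613 probe sets. A gene was called at an adjusted p under 0.05 and at least 1.5-fold. On simulated arrays the fit recovered 85.0%, 98.5% and 100% of probe sets changed by 1.6, 2 and 3-fold in the comparison of IGF-I with SFM at 4 h in IRS-1 #10, and 99.0%, 100% and 100% in the test of the SFM level over the 4 clones. Tables and plots were made in Python 3.11.15 (pandas 2.3.3, numpy 2.4.6, matplotlib 3.10.9).

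The members, the other gene lists and the tests were chosen with earlier results of these data known. Full values are given for the 14 members with the widest called gap between clones, for members called for IGF-I or time (for each, at most the 12 with the largest difference in any clone), and for members whose response or time difference was called over the clones. Some others were added after their values were seen, among them IRF7, MX1 and MX2. The main fit did not pair arrays by replicate letter. Of 24 pairs of arrays of the same letter, 3 correlated by more than 0.1 (range -0.444 to 0.302), all of them in IRS-1 #20. Such correlations cannot show that arrays were unpaired. Alternatives were other fold thresholds, no intensity trend, fits to the arrays of a comparison alone, quantile normalization, median centring, a filter on dim probe sets, averaging all probe sets of a gene, the methods' t-test, a block for the letter and leaving out each letter. The use of SFM arrays of 1 time alone, or of IGF-I arrays, was chosen after seeing the data.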

Additional observations from a re-analysis of the deposited data

Results flagged for a closer look

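Clones #10 and #20 express IRS-1, and #1 and #6 express IRS-2. In 35 cases a difference between treatments or times was itself found to differ between the clones (limma, adjusted p under 0.05 and a gap of at least 1.5-fold between the clone with the largest and the clone with the smallest difference). All are given as that gap on the log2 scale.

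For the response to IGF-I at 24 h there were 8 such members. The gap was 0.73 for CMPK2, HERC5 and OASL, 0.72 for RSAD2, 0.66 for IFI44L, 0.65 for IFIT3, 0.63 for ISG15 and 0.61 for IFI44.

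For the difference between 24 h and 4 h in SFM there were 27. Among RNA sensors and factors the gap was 0.87 for DDX60, 0.82 for IFIH1 and 0.78 for IRF7. Among effectors that act on RNA or nucleotides it was 1.24 for OAS2, 1.09 for IFIT1, 0.99 for OAS3, 0.98 for MX1, 0.94 for IFIT3, 0.93 for RSAD2, 0.91 for CMPK2 and OAS1, 0.84 for OASL, 0.66 for IFIT2 and 0.60 for IFIT5. In the ISG15 system it was 1.17 for ISG15, 0.61 for UBE2L6 and 0.60 for HERC5, and for the membrane protein IFITM1 it was 0.71. Among the other members it was 1.47 for IFI44L, 1.08 for XAF1, 1.00 for IFI44, 0.88 for TRIM22, 0.85 for PARP9, 0.82 for IFI35, 0.80 for SAMD9, 0.68 for SAMD9L and 0.64 for PARP14. No gene of antigen processing was among them.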

How the results depend on the processing

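Of 342 counts of called members recomputed under the alternatives, 288 stayed within 1.5 times the reported count and 54 did not. No named value changed its sign in 1033 recomputed values. Many of these are gaps between the highest and the lowest clone, which cannot be negative. Only the differences between 2 conditions could have changed sign. In 112 of them a call was lost, and none of these was a baseline value. With no fold threshold, the counts for IGF-I at 4 h were 2 in #20, 3 in #1 and 7 in #6, and at 24 h 22 in #10, 23 in #20, 2 in #1 and 2 in #6. For 24 h against 4 h in SFM they were 5 in #10, 36 in #20 and 27 in #1. At baseline they were 31 for #10 against #20 and 46 for #10 against #6, and over the clones 15 for the 24-h response and 44 for time. Without a fold threshold, the share of all genes was taken only for IGF-I at 24 h (4.55% to 11.0%). The other counts without that threshold have no share beside them, so they cannot be read as particular to the members. Counts under the other alternatives have no such share either. At 2-fold, IGF-I gave 0 at 4 h in #6, 0 at 24 h in #10 and 0 in #20. Time gave 4 in #20, 0 in #1 and 16 in #6, and the baseline 0 for #10 against #20, 21 for #1 against #6, 17 for #10 against #6 and 13 for #20 against #6. Over the clones it gave 0 for the 24-h response and 6 for time.

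When all probe sets of a gene were averaged, the counts were 0 for IGF-I at 4 h in #6, 2 at 24 h in #20 and 3 for time in #1. Quantile normalization gave 2 for IGF-I at 24 h in #10, 1 for #10 against #20 and 2 for the 4-h response over the clones. The methods' t-test with adjusted p gave 0 for IGF-I at 4 h in #6, 0 at 24 h in #10 and 0 in #20, 0 for time in #20, 0 in #1 and 19 in #6, and 1 for #10 against #20. SFM arrays of 4 h alone gave 10 for #10 against #20, and those of 24 h alone 16 for #10 against #6. The cause of these shifts was not tested beyond the thresholds themselves.

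Leaving out the arrays of 1 letter in turn gave 0 to 1 for IGF-I at 4 h in #1, 0 to 2 in #6, and at 24 h 0 to 1 in #10, 0 to 2 in #20 and 0 to 1 in #1. Time in #1 gave 3 to 9, the lowest without A and the highest without B, the 4-h response over the clones 0 to 1 and the 24-h response 4 to 6. The replicate block for the letter changed no count, with 41 members at baseline and 30 for time in #6, nor did the replicate block within clone and time, with 2 members for IGF-I at 4 h in #6. The letters are not known to mark shared cultures. With 3 arrays a group, IGF-I responses under 1.5-fold were measured but not called, and dim probe sets limit what could be seen for interferon genes.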
